A study of Mus musculus with 10 samples.

Results

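The Th2 cytokine locus of mouse chromosome 11 was described in lung DNA by its CpG methylation. The 8 members were the cytokine genes Il4, Il13, Il5, Il3 and Csf2, the genes Rad50 and Kif3a that lie among or beside the first 3 of them, and Irf1. Windows of 1000 bp, placed every 500 bp, were chosen by position, as those that overlap a member's RefSeq gene span extended by 5 kb on each side. Of the 105 such windows, 102 had at least 20 CpG calls in every mouse and were analysed, out of 421759 windows of the whole genome that met this minimum and 446336 that were deposited. The 102 windows formed 24 separate stretches, because the capture covers only part of the locus, and neighbouring windows share calls.

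The study asked how methylation differs between the lungs of control mice, of mice with allergic airway inflammation, and of such mice treated with an herbal extract. All 10 mice were female BALB/c animals bought at 8 weeks of age. The saline group (3 mice) was the control, the OVA group (3 mice) was sensitized by ovalbumin in alum and challenged with intranasal ovalbumin, and the DSE group (4 mice, named Herb in the sample labels) also received ovalbumin and was given 200 mg/kg of Descurainia sophia seed extract (DSE) by mouth. No mouse received DSE without ovalbumin. The DNA came from lung tissue, a mixture of epithelial, endothelial, stromal and immune cells, so a change in the share of a cell type and a change of methylation within a cell type cannot be told apart. DSE vs. OVA and OVA vs. saline share the OVA mice, and both comparisons with saline share the saline mice.

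IL-4, IL-13 and IL-5 are the signature cytokines of T helper 2 (Th2) cells and drive IgE production, airway mucus and eosinophilia in allergic asthma. Their genes are switched on together in Th2 cells, group 2 innate lymphoid cells and mast cells, and a locus control region within the 3′ part of Rad50, a DNA repair gene, takes part in this control. In other cells the cytokine genes are mostly silent, whereas the CpG-rich starts of housekeeping genes such as Rad50 stay unmethylated in most cell types.

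The members differ in how many CpGs their start sites hold, as the 250 bases before RefSeq start sites of Il4 and Irf1 show. RefSeq lists 2 start sites for each of these genes, and the 1 at the gene's outer end is shown. This promoter of Il4 (GRCm38.p6, chr11:53618666-53618915, minus strand) holds 0 CpGs, while that of Irf1 (chr11:53769764-53770013, plus strand) holds 25. With the 50 bases after the start included, 85.9% of 32851 mouse promoters held at least as many CpGs as Il4 (2), and 9.52% held at least as many as Irf1 (32). The inner promoters, chr11:53617339-53617588 for Il4 and chr11:53770223-53770472 for Irf1, hold 1 and 35 CpGs. The regions that differed most between the groups lay outside these promoters: 300 bases each are shown of the window 3′ of Il4 (chr11:53609501-53609800, plus strand, 6 CpGs) and of the window in intron 1 of Kif3a (chr11:53568001-53568300, plus strand, 5 CpGs). Capitals mark the CpGs, the only bases at which methylation was counted.
Il4 promoter: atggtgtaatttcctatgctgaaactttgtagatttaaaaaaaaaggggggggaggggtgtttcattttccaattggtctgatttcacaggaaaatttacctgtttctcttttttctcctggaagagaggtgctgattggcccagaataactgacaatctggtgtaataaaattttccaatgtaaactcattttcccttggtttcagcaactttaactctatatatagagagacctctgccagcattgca
Irf1 promoter: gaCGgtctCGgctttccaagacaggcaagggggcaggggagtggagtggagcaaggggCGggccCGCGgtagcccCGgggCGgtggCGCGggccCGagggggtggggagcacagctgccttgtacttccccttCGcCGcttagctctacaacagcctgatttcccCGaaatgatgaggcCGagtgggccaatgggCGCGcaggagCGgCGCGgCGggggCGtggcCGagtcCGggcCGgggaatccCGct
Il4 3′ window: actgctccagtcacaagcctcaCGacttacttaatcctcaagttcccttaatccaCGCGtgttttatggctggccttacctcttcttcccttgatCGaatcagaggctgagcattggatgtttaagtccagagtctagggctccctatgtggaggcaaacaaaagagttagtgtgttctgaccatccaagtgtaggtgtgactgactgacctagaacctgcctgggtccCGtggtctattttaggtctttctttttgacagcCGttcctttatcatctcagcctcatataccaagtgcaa
Kif3a intron 1 window: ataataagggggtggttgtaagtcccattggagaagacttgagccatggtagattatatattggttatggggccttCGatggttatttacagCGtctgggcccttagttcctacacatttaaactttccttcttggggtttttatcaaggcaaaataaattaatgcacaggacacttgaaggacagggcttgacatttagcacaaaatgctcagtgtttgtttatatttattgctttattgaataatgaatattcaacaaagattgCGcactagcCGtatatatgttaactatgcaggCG

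The methylation level of a window is the number of methylated calls as a percent of all calls there. In the saline mice the locus was mostly methylated, with a median of 69.7% over its 102 windows against 56.6% over all windows. There were 16 windows under 20%, 24 over 80% and 62 between these levels. The window means of Rad50 in saline mice ran from 1.03% to 97.2%, both next to its start site. Il13 ranged from 2.02% to 96.4%, Kif3a from 2.44% to 91.5% and Irf1 from 0.775% to 74.4%. Il4 (39.1% to 91.7%), Il3 (25.5% to 83.7%) and Csf2 (18.2% to 76.7%) had no window under 18%, and the 1 distinct window of Il5 was at 74.3%. Over the 10 mice the member windows had 20 to 5110 calls, with a median of 673. A level near 50% from 673 calls has a Wilson 95% interval of 46.2% to 53.7%, and one from 20 calls an interval of 29.9% to 70.1%. These intervals cover counting error only, and calls of 1 molecule are not independent.

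**Figure D1:**
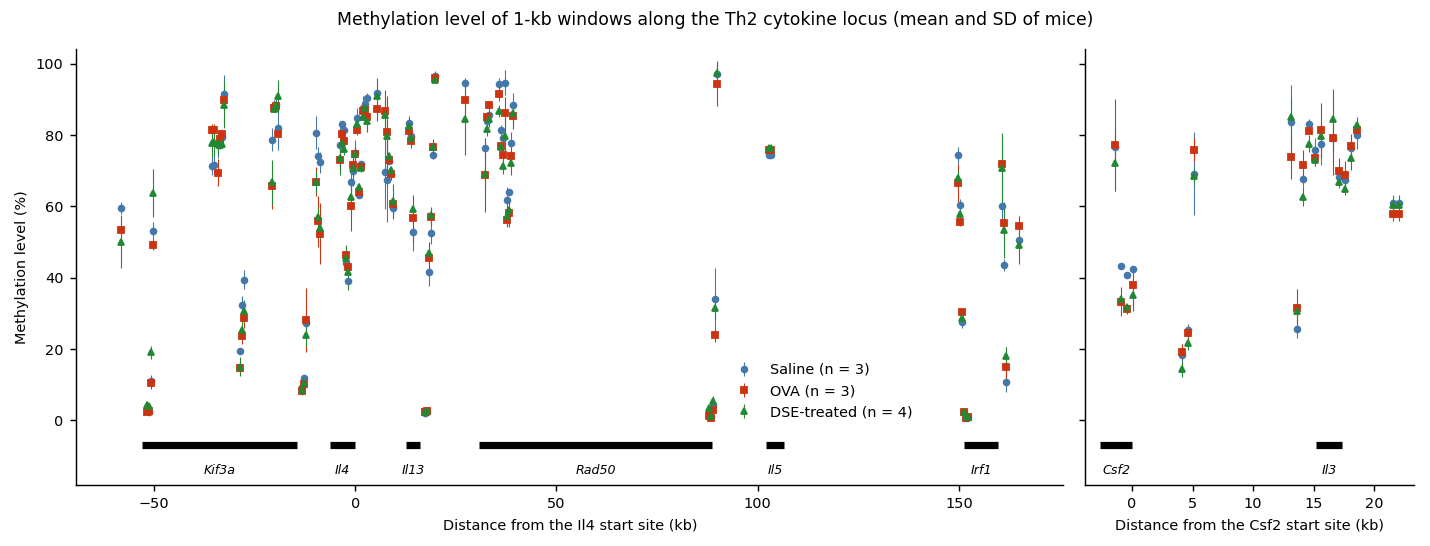
Methylation level (%) of each of the 102 windows against the distance of its centre from the Il4 start site (left) or the Csf2 start site (right), in kb. Points are group means, vertical lines are SDs over the mice, and black bars are the member genes. The levels fall to under 6% at the starts of Kif3a, Rad50 and Irf1 and upstream of Il13, and the 3 groups lie close together in most windows.

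The mean over the 102 windows was lower in every OVA mouse than in every saline mouse. It was 59.8%, 59.3% and 59.2% in the saline mice, 58.3%, 58.1% and 58.1% in the OVA mice, and 58.1%, 58.1%, 58.0% and 58.6% in the DSE mice. The OVA mean lay 1.29 percentage points below the saline mean, whereas over all windows it lay 1.22 points above it. The DSE mean differed from the OVA mean by 0.017 points, compared with -0.11 points over all windows. DSE vs. saline gave -1.28 points in the locus and 1.11 points over all windows. No test was made of these means, since the members were chosen together. They weight windows equally, and other weights gave other values. With all calls of the locus pooled in each mouse, OVA vs. saline was -3.20, DSE vs. OVA 3.73 and DSE vs. saline 0.53 points. The sign of the last thus turned. A pooled value also depends on how a mouse's calls are spread over windows of high and low level, so it is not a methylation difference alone.

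A differentially methylated region (DMR) was a window with an adjusted p under 0.01 in a likelihood ratio test of the calls and at least 10 percentage points between the pooled levels of the groups. In OVA vs. saline, 2 of the 102 windows were hyper methylated DMRs (4.83% of all windows were) and 5 were hypo methylated DMRs (2.60% of all windows). The counts are small, and the 5 hypo methylated windows lay in 3 regions, 1 of which held 3 overlapping windows. Among the 50 windows of the locus that do not overlap, 1 was hyper and 1 hypo methylated (2.00% each), against 4.83% and 2.60% of such windows in the genome. The test treats calls as independent, while replicate mice differed more than that, with a mean chi-square per window of 2.64 to 3.76 between mice of a group where counting error alone gives 1. When the mice were the replicates (limma on M-values, the log2 ratio of methylated to unmethylated calls), 0 windows of the locus and 0 of all 421759 passed an adjusted p of 0.05. At an unadjusted limma p under 0.05 there were 5 higher windows (13.0% of all windows) and 19 lower windows (6.76%). All OVA mice were below all saline mice in 27 windows (9.03% of all windows) and above them in 8 (18.0%). The pooled difference was below 0 in 61 windows, or 59.8% of the locus, against 39.0% of all windows.

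**Figure D2:**
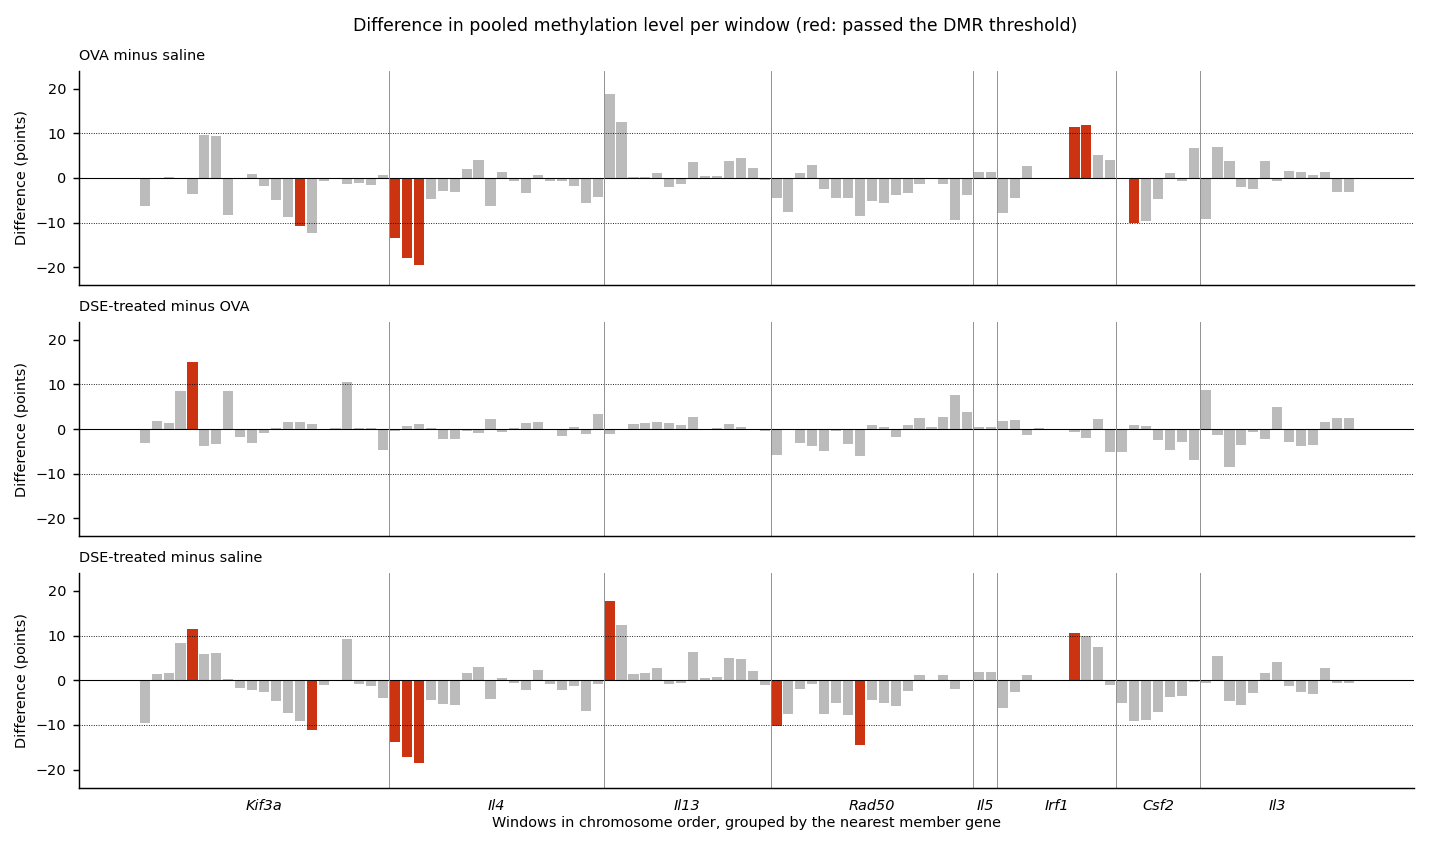
Difference in pooled methylation level, in percentage points, for the 102 windows in chromosome order, in OVA vs. saline (top), DSE vs. OVA (middle) and DSE vs. saline (bottom). Bars in red passed the DMR threshold, dotted lines mark 10 points, and vertical lines separate the windows by member gene. The 3 red bars next to each other are the windows 3′ of Il4, at -13.4 to -19.6 points in OVA vs. saline and -13.9 to -18.5 points in DSE vs. saline.

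The largest hypo methylated region of the locus in OVA vs. saline lay between Kif3a and the 3′ end of Il4. Il4 is read from the minus strand, so this interval follows its last exon. The region covered chr11:53608501-53610500, with 3 overlapping windows. In the window chr11:53609501-53610500, whose centre is 2460 bp past the 3′ end of Il4 and which is intergenic, the level was 74.8%, 73.0% and 69.2% in the saline mice. It was 61.8%, 44.8% and 50.5% in the OVA mice and 55.2%, 51.7%, 57.2% and 51.2% in the DSE mice. Both ovalbumin groups lay below all saline mice and overlapped each other. The pooled level was lower by 19.6 points in OVA vs. saline and by 18.5 points in DSE vs. saline, and both passed the DMR threshold with every mouse left out in turn. The exact permutation test gave its smallest possible p in both comparisons, 0.1 for 3 mice against 3 and 0.0571 for 3 against 4. With mice as replicates the adjusted limma p was 0.103 for the first and 0.0215 for the second comparison. DSE vs. OVA differed by 1.03 points in this window (limma adjusted p = 0.957).

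The other 2 windows of this region had the same order of groups. At chr11:53609001-53610000 the mean level was 74.2% ± 2.58 in saline, 55.8% ± 7.19 in OVA and 57.0% ± 2.83 in DSE mice (SD, n = 3, 3 and 4). At chr11:53608501-53609500 it was 80.6% ± 4.57, 66.9% ± 4.05 and 66.9% ± 3.12. DSE vs. saline passed limma in both (adjusted p = 0.0219 and 0.0402), and OVA vs. saline did not (0.0984 and 0.119). Further along the same interval, next to Kif3a, 3 windows from 53605001 to 53607000 had saline means of 9.38%, 11.9% and 27.3%. Over the 10 mice the first ranged from 6.76% to 9.66% and the third from 20.6% to 38.5%. The mean of all 6 windows between Kif3a and Il4 was 46.0% ± 1.43 in saline, 36.9% ± 2.66 in OVA and 36.7% ± 1.51 in DSE mice.

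The Il4 gene itself showed no DMR among its 8 windows in the 3 comparisons. At the shares of all windows called, at most 5.02% in a direction, few or none of 8 would be. The window nearest its outer start site, chr11:53618001-53619000, which holds 20 CpGs and includes exon 1, had 77.1%, 77.0% and 71.1% in the saline mice. The OVA mice had 72.5%, 75.4% and 76.4%, and the DSE mice 77.6%, 72.9%, 74.1% and 74.5%. The 3 groups overlapped, and the exact permutation p was 0.8 for OVA vs. saline, 1 for DSE vs. OVA and 0.914 for DSE vs. saline. The lowest window of the gene in saline mice lay in intron 2 (chr11:53616501-53617500) and holds the inner RefSeq start site. It was at 39.1% ± 0.811 in saline, 43.1% ± 2.22 in OVA and 41.7% ± 5.20 in DSE mice. All OVA mice lay above all saline mice there, by 3.90 points (limma adjusted p = 0.440). The DSE mice overlapped both groups. Over the 18 windows of Il4 and its flanks, DSE vs. saline passed limma in 4, all lower, of which 3 were those 3′ of the gene. The fourth, chr11:53621001-53622000 upstream of the start, was 90.4% ± 1.38 in saline and 83.9% ± 2.37 in DSE mice (limma adjusted p = 0.0474), and OVA mice had 82.0%, 83.6% and 89.9%.

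Il13, which encodes the cytokine behind airway mucus and hyperreactivity, had an unmethylated region upstream of its start. The window chr11:53635501-53636500 holds 47 CpGs and lies nearest the start site among the windows measured, but does not include it. Its levels were 2.30%, 2.80% and 0.96% in saline, 1.81%, 3.08% and 2.32% in OVA, and 2.54%, 1.82%, 2.15% and 3.21% in DSE mice. The groups overlapped in each comparison. No window measured covered the start site itself (chr11:53634702). The nearest window inside the gene, chr11:53632501-53633500, was at 52.7% ± 5.24 in saline mice. The gene body was methylated, with a mean over 3 windows of 71.9% ± 2.34 in saline, 72.0% ± 1.83 in OVA and 73.7% ± 2.29 in DSE mice. Over all 14 windows of Il13 and its flanks the mean was 58.8% ± 0.528, 61.9% ± 0.987 and 62.4% ± 0.276. Every OVA mouse and every DSE mouse lay above every saline mouse in this mean. Against saline, each ovalbumin group had a pooled difference above 0 in 11 of these windows and below 0 in 3. Neighbouring windows share calls, and the mean includes the window of few calls given next. Between Il4 and Il13 the window chr11:53625501-53626500 had 81.0%, 66.7% and 61.0% in saline mice, 86.7% ± 6.03 in OVA mice (SD, n = 3), and 87.0%, 89.4%, 86.7% and 79.7% in DSE mice. In OVA vs. saline the difference was 18.8 points, with an adjusted p of 0.0126 in the likelihood ratio test, so it was no DMR. DSE vs. saline was a hyper methylated DMR, by 17.7 points, but the groups overlapped and the window had as few as 21 calls in a mouse. The call was lost without DSE mouse 2 (16.4 points), saline mouse 2 (17.4 points) or saline mouse 3 (12.2 points).

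Il5, the gene of the eosinophil growth factor, was covered by 2 windows with identical calls in every mouse, so they count as 1 measurement. The window chr11:53721001-53722000 covers parts of introns 1 and 2. It had 73.6%, 74.1% and 75.2% in saline, 75.3%, 75.0% and 77.1% in OVA, and 75.1%, 76.6%, 76.8% and 76.8% in DSE mice. These values overlapped, and the exact permutation p was 0.2 for OVA vs. saline and 0.114 for DSE vs. saline.

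**Figure D3:**
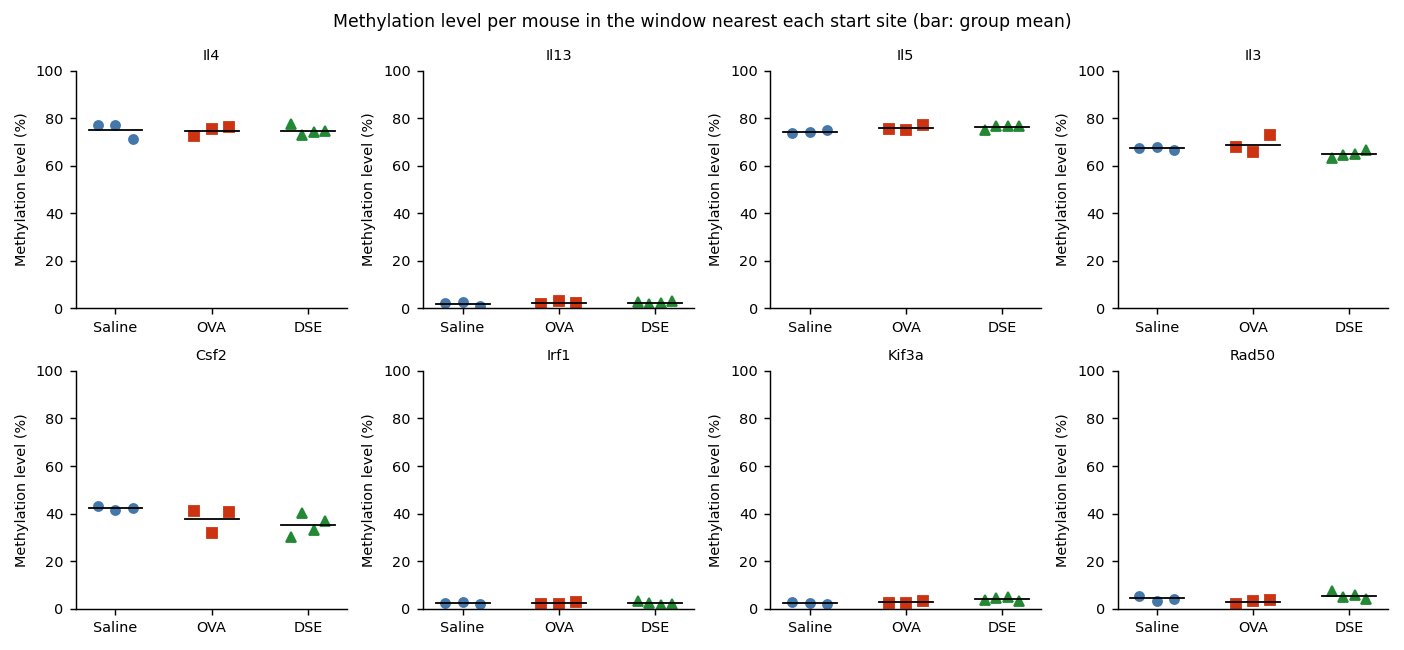
Methylation level (%) in the window nearest the start site of each member, with 1 point per mouse and a bar at the group mean. Il13, Irf1, Kif3a and Rad50 are at 0.96% to 7.27% in all mice, Csf2 is at 30.1% to 43.0%, and Il4, Il5 and Il3 are at 63.1% to 77.6%. The windows of Il13 and Il5 do not include the start site.

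Rad50 contributed 11 windows from its last 25 kb, the part of the gene that holds the locus control region as background knowledge. Whether these windows coincide with a given hypersensitive site was not examined. Their mean level was 81.1%, 80.3% and 80.6% in the saline mice. It was 77.6%, 78.2% and 74.6% in the OVA mice and 76.2%, 72.3%, 74.7% and 76.4% in the DSE mice, so that both groups lay below the saline mice. The pooled difference was below 0 in 9 of these 11 windows in OVA vs. saline (39.0% of all windows). DSE vs. saline had all 11 below 0 (38.3% of all windows). Neighbours among the 11 overlap and share calls. In the window chr11:53655501-53656500 (centre in intron 21) the saline mice had 90.7%, 97.3% and 96.1%, the OVA mice 86.4%, 90.5% and 81.2%, and the DSE mice 82.2%, 73.1%, 79.6% and 84.5%. DSE mice lay below all saline mice by 14.5 points, which passed the DMR threshold with each mouse left out in turn and limma (adjusted p = 0.0295). OVA vs. saline was -8.55 points (limma adjusted p = 0.151), and DSE vs. OVA was -5.95 points with overlapping mice.

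Of the neighbouring windows in this part of Rad50, 2 more passed limma in DSE vs. saline. At chr11:53654001-53655000 the mean was 94.4% ± 1.52 in saline, 91.4% ± 1.92 in OVA and 86.7% ± 1.67 in DSE mice (adjusted p = 0.0237). At chr11:53655001-53656000, which overlaps the window in intron 21, it was 79.2% ± 0.768, 74.5% ± 1.94 and 71.3% ± 2.17 (adjusted p = 0.0491). Their differences were under 10 points. A window past the 3′ end of Rad50 (chr11:53645501-53646500) was a hypo methylated DMR in DSE vs. saline by 10.3 points, but 1 DSE mouse at 70.0% stood apart from the others at 86.6% to 93.8%. Without that mouse, DSE mouse 2, the difference was -6.69 points and no DMR was called. The call was also lost without saline mouse 1 (-9.55 points) or saline mouse 3 (-10.3 points).

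**Figure D4:**
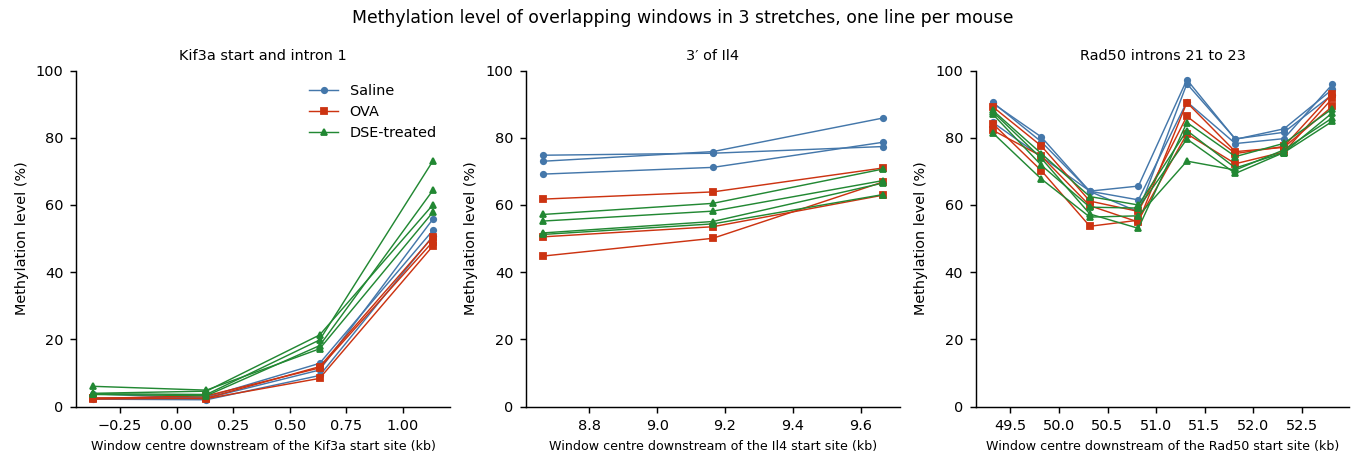
Methylation level (%) of overlapping windows against the distance of the window centre downstream of the start site, in kb, at the Kif3a start (left), 3′ of Il4 (middle) and in introns 21 to 23 of Rad50 (right), with 1 line per mouse. The DSE lines lie above the others at 17.2% to 21.3% and 57.8% to 73.1% in the last 2 windows of the left panel, while OVA and DSE lines both lie under the saline lines in the middle panel.

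The start of Rad50, where the DNA is CpG-rich, was nearly unmethylated. The window nearest the start site (chr11:53707001-53708000) had 5.47%, 3.45% and 4.14% in saline, 2.06%, 3.11% and 3.88% in OVA, and 7.27%, 4.92%, 5.75% and 4.30% in DSE mice, and the DSE mice were above all OVA mice (limma adjusted p = 0.283). In the window chr11:53706001-53707000 (30 CpGs, intron 1) the levels were 2.45%, 2.82% and 1.98% in saline, 0.818%, 1.08% and 1.36% in OVA, and 4.36%, 3.85%, 3.29% and 2.14% in DSE mice. The OVA mice were below all saline mice and all DSE mice, with an exact permutation p of 0.1 and 0.0571, the smallest each design can give. The differences were -1.30 and 2.41 points, far under the 10 points of the DMR threshold, and the limma adjusted p was 0.0979 and 0.0863. Upstream of the start, the window chr11:53707501-53708500 (15 CpGs) had 34.0% ± 8.65 in saline, 23.8% ± 1.79 in OVA and 31.6% ± 3.13 in DSE mice. The OVA mice were again below all others. OVA vs. saline was -9.39 points and DSE vs. OVA 7.54 points there. Neither reached 10 points or passed limma.

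Kif3a encodes a kinesin motor subunit needed for cilia. Its first intron held the 1 DMR of the locus in DSE vs. OVA, which was hyper methylated (0.888% of all windows were). There were 0 hypo methylated windows (0.699% of all windows). In this window, chr11:53568001-53569000 with 8 CpGs, the saline mice had 52.4%, 55.8% and 50.7%. The OVA mice had 47.8%, 50.5% and 49.1%, and the DSE mice 73.1%, 60.0%, 57.8% and 64.4%. The DSE mice lay above all others. The pooled difference was 15.1 points in DSE vs. OVA, which remained a DMR with each mouse left out in turn, and 11.5 points in DSE vs. saline, where the call was lost without DSE mouse 1 (8.24 points). The limma adjusted p was 0.246 and 0.141.

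The higher level of the DSE mice extended towards the Kif3a start site. The window chr11:53567501-53568500 (54 CpGs) had 12.9%, 10.9% and 9.25% in saline, 8.38%, 11.9% and 11.5% in OVA, and 19.8%, 21.3%, 17.2% and 18.1% in DSE mice. DSE vs. saline was 8.26 points (limma adjusted p = 0.0303), the only higher window of the locus that passed limma, and DSE vs. OVA was 8.58 points (limma adjusted p = 0.105). At the start site itself (chr11:53567001-53568000, 74 CpGs) the means were 2.44% ± 0.408 in saline, 2.69% ± 0.444 in OVA and 4.07% ± 0.787 in DSE mice. The DSE mice were above all others there as well. Across the genome, the 46905 windows with a mean under 5% averaged 1.85% to 1.94% in the saline mice, 1.85% to 2.03% in the OVA mice and 2.07% to 2.28% in the DSE mice. The 23 mitochondrial windows, where little methylation is present, had 1.43% to 1.67%, 1.50% to 1.85% and 1.33% to 1.45%. The part of these shifts in the result at Kif3a was not tested.

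Further inside Kif3a the groups differed in both directions. In intron 5 (chr11:53582501-53583500) the level was 71.4% ± 2.54 in saline, 81.4% ± 1.80 in OVA and 77.7% ± 3.93 in DSE mice (SD, n = 3, 3 and 4). All OVA mice lay above all saline mice there, by 9.70 points, which is just under the DMR threshold (limma adjusted p = 0.102), and DSE vs. saline was 5.98 points with overlapping mice. The overlapping window at chr11:53583001-53584000 gave 9.48 and 6.15 points. With its centre in intron 8, the window chr11:53584001-53585000 had means of 77.2% ± 3.74, 69.5% ± 3.68 and 77.7% ± 2.91. All OVA mice lay below all saline and all DSE mice there. OVA vs. saline was -8.39 points (limma adjusted p = 0.218) and DSE vs. OVA 8.61 points (limma adjusted p = 0.320). In intron 9 (chr11:53590501-53591500, 18 CpGs, at least 2083 calls per mouse) the saline mice had 41.4%, 40.6% and 36.4%, the OVA mice 31.2%, 25.7% and 29.4%, and the DSE mice 33.1%, 28.3%, 33.4% and 27.5%. Both groups lay below all saline mice. OVA vs. saline was a hypo methylated DMR at -10.8 points (limma adjusted p = 0.124), with the call lost without OVA mouse 2 (-9.14 points) or saline mouse 1 (-9.69 points), and DSE vs. saline was -9.09 points (limma adjusted p = 0.0851). At exon 14 (chr11:53597501-53598500) the means were 78.7% ± 3.19, 65.7% ± 6.46 and 66.7% ± 6.32, a hypo methylated DMR in DSE vs. saline at -11.1 points. That call was lost without DSE mouse 2 (-9.81), DSE mouse 3 (-9.04), saline mouse 1 (-9.63) or saline mouse 2 (-11.7 points). OVA vs. saline was -12.2 points there and did not pass the DMR threshold.

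**Figure D5:**
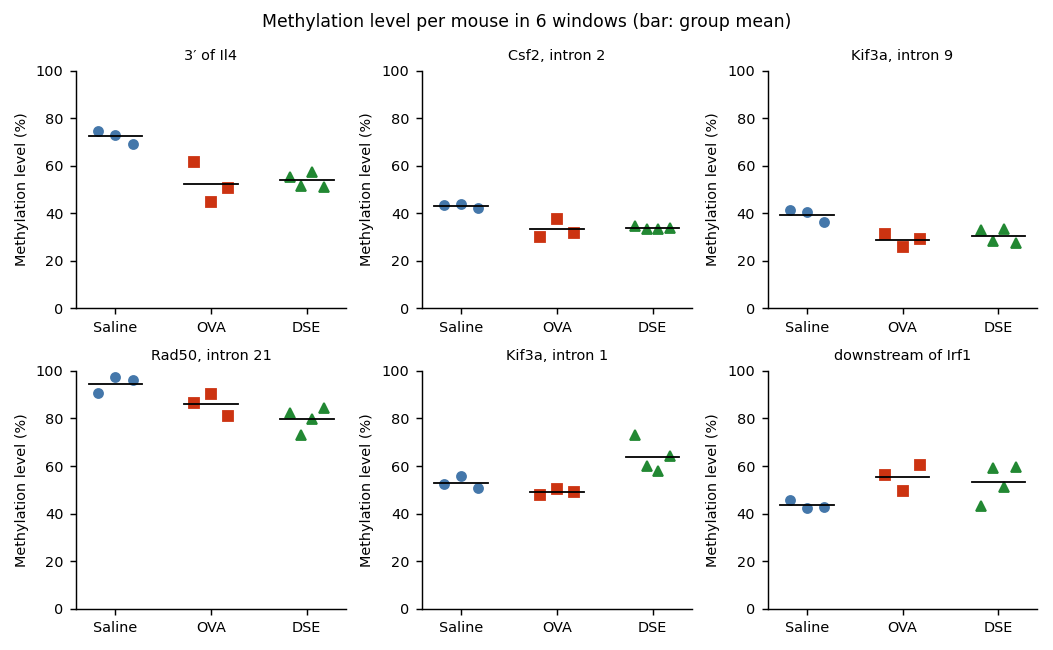
Methylation level (%) per mouse in 6 windows, with 1 point per mouse and a bar at the group mean. In the windows 3′ of Il4, in Csf2, in intron 9 of Kif3a and in intron 21 of Rad50 all OVA and DSE points are under the saline points, in intron 1 of Kif3a the DSE points are above both other groups, and downstream of Irf1 the OVA points are above the saline points.

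Irf1, a transcription factor gene induced by interferon, had a CpG-rich start that was unmethylated in all mice. The window at its start site (chr11:53769501-53770500, 94 CpGs) was at 2.42% ± 0.301 in saline, 2.27% ± 0.436 in OVA and 2.38% ± 0.748 in DSE mice. The next window downstream ranged from 0.571% to 0.972% over the 10 mice. Upstream, at chr11:53768001-53769000, both ovalbumin groups lay below all saline mice. OVA vs. saline was -7.97 points and DSE vs. saline -6.26 points (limma adjusted p = 0.242 and 0.121). The overlapping window chr11:53768501-53769500 gave -4.62 and -2.53 points. Closer to the start, chr11:53769001-53770000 went the other way, at 2.56 and 1.14 points. Downstream of the gene, both hyper methylated DMRs of OVA vs. saline overlapped within chr11:53779001-53780500, in intergenic DNA. In the window chr11:53779501-53780500 (5 CpGs) the saline mice had 45.6%, 42.5% and 42.6%, the OVA mice 56.2%, 49.6% and 60.6%, and the DSE mice 43.1%, 59.3%, 51.3% and 59.8%. The OVA mice lay above all saline mice by 11.8 points (limma adjusted p = 0.148), while the DSE mice overlapped both groups. The call was lost without OVA mouse 3 (9.20 points). In DSE vs. saline the overlapping window chr11:53779001-53780000 was the DMR, at 10.7 points, and was not called without DSE mouse 2 (8.02), DSE mouse 4 (7.96), saline mouse 2 (9.24) or saline mouse 3 (9.59 points).

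Csf2, the gene of the growth factor GM-CSF, was intermediate at its start. The window nearest the start site (chr11:54249501-54250500) had 43.0%, 41.6% and 42.3% in saline, 41.0%, 31.9% and 40.9% in OVA, and 30.1%, 40.1%, 33.2% and 36.7% in DSE mice. Both groups lay below the saline mice, at -4.71 and -7.05 points. In the window chr11:54248501-54249500, with its centre in intron 2, the saline mice had 43.7%, 43.8% and 42.3%, the OVA mice 30.2%, 37.8% and 31.6%, and the DSE mice 34.9%, 33.5%, 33.5% and 34.0%. OVA vs. saline was a hypo methylated DMR at -10.0 points (limma adjusted p = 0.146), close to the threshold, and the call was lost without OVA mouse 1 (-8.35), OVA mouse 3 (-9.36), saline mouse 1 (-9.79) or saline mouse 2 (-9.78 points). DSE vs. saline was -9.18 points, under the 10 points of a DMR, with a limma adjusted p of 0.0411. The overlapping window chr11:54249001-54250000 had the same order of groups, at 40.8% ± 0.679, 31.2% ± 1.49 and 31.8% ± 0.852 (DSE vs. saline, limma adjusted p = 0.0422). All 7 windows of Csf2 had a pooled difference below 0 in DSE vs. saline (38.3% of all windows did), whereas OVA vs. saline had 4 below and 3 above 0, with a median of -0.72 points.

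Il3, the gene of a growth factor for mast cells and basophils, had 13 windows and 0 DMRs in the 3 comparisons. At the shares of all windows called, at most 5.02% in a direction, few or none of 13 would be. The window nearest its start site (chr11:54267001-54268000) had 67.7%, 68.1% and 66.7% in saline, 67.8%, 65.8% and 73.0% in OVA, and 63.1%, 64.4%, 64.9% and 66.7% in DSE mice. The highest DSE mouse and the lowest saline mouse were both at 66.7% after rounding, and DSE vs. saline was -2.61 points (limma adjusted p = 0.449). The mean of the 13 windows was 69.7% ± 0.371, 69.6% ± 0.864 and 69.4% ± 0.777.

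In DSE vs. saline, 3 of the 102 windows were hyper methylated DMRs (5.02% of all windows) and 6 were hypo methylated (3.09%). Among the 50 windows that do not overlap, 2 were hyper and 1 was hypo methylated, against 5.01% and 3.07% of such windows in the genome. Limma with mice as replicates called 1 higher window (3.46% of all windows) and 9 lower windows (2.13%). The 9 lower windows were 4 at Il4, 3 in Rad50 and 2 in Csf2, and came from 4 stretches of touching windows. With a difference of 10 points also required, limma left 0 higher (2.31%) and 4 lower windows (1.69%). At an unadjusted limma p under 0.05 there were 9 higher (16.8%) and 22 lower windows (8.15%). The pooled difference was below 0 in 65 windows (38.3% of all windows). All DSE mice were below all saline mice in 22 windows (7.86%) and above them in 6 (16.4%). In DSE vs. OVA all DSE mice were above all OVA mice in 11 windows (5.67%) and below them in 8 (4.59%), and limma called 0 windows (0.107% of all windows higher and 0.0273% lower), with 0 also where 10 points were required (0.0567% and 0.0213%), and 10 higher and 5 lower at an unadjusted p under 0.05 (5.53% and 4.21%). Of those 11 windows, 6 were at Kif3a and 3 at the start of Rad50. The pooled difference was above 0 in 56 windows (49.2% of all windows).

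Most genes marking leukocytes also had a lower mean level near their start sites in the OVA mice. Of 11 leukocyte genes, 8 had windows, and the mean of these was 69.1% to 71.3% in the saline mice, 63.6% to 66.9% in the OVA mice and 63.9% to 66.4% in the DSE mice. The mean was lower in OVA than in saline for 7 of the 8, against 41.4% of 24029 genes measured the same way. All OVA mice lay below all saline mice for 3 of the 8, Ptprc, Cd4 and Spi1, against 10.6% of those genes. Ptprc, which encodes the CD45 antigen of all leukocytes, had 63.7% ± 3.45 in saline, 47.0% ± 2.19 in OVA and 44.9% ± 2.85 in DSE mice. The list moved in the same direction as the regions 3′ of Il4, in Csf2, in Kif3a intron 9 and in Rad50, and its part in those results was not tested. Of 6 lung epithelium genes 4 had windows, at 33.3% to 38.0% in saline, 34.2% to 36.2% in OVA and 33.9% to 39.6% in DSE mice. Of 4 endothelial genes 2 had windows, at 33.3% to 34.8%, 34.9% to 38.6% and 33.4% to 35.6%.

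Genes of the same pathway and neighbouring genes were counted with the same DMR threshold. Among 87 windows at 8 of 9 receptor genes of these cytokines, OVA vs. saline gave 2 hyper (2.30% of them, against 4.83% of all windows) and 1 hypo methylated (1.15% against 2.60%). DSE vs. OVA gave 0 and 1 (0% and 1.15%, against 0.888% and 0.699%), and DSE vs. saline gave 6 and 7 (6.90% and 8.05%, against 5.02% and 3.09%). Il4ra, a subunit of the IL-4 and IL-13 receptors, held the 2 hyper methylated windows. Il5ra, which encodes the ligand-binding subunit of the IL-5 receptor, held the 1 hypo methylated window. Among 386 windows at 12 regulators of Th2 cells, OVA vs. saline gave 17 hyper (4.40%) and 20 hypo methylated windows (5.18%), DSE vs. OVA gave 1 and 0 (0.259% and 0%), and DSE vs. saline gave 18 and 22 (4.66% and 5.70%). Nfatc1, with 54 windows, alone held 10 of the 20 hypo methylated windows in OVA vs. saline and 11 of the 22 in DSE vs. saline. Neighbouring windows share calls, so these are not separate observations. Gata3, the master transcription factor of Th2 cells, had 0 DMRs among 40 windows when OVA mice were compared with saline mice, and 1 hyper methylated window in DSE vs. OVA. Among 215 windows at 9 neighbours of the locus, the same counts were 6 and 9 (2.79% and 4.19%), then 2 and 2 (0.930% each), and then 3 and 11 (1.40% and 5.12%). The medians of the pooled difference over the 3 lists were 0.51, -0.075 and 0.32 points in OVA vs. saline, against 0.73 points over all windows.

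The mean of the 51 windows of Il4, Il13, Rad50 and Il5 was compared with the mean of 27882 other genes over the 10 mice. It was 67.0% to 67.9% in the saline mice, 65.4% to 65.6% in the OVA mice and 64.5% to 66.3% in the DSE mice. The 5 genes most like it were Glipr2 (Pearson's r = 0.948), Gm31515 (0.943), Gm46941 (0.943), 8430419K02Rik (0.939) and D17H6S56E-5 (0.939). These are the highest of 27882 values over 10 mice that share libraries and groups, and are given as a description.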

How the data were processed

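Methyl-seq libraries of lung DNA from 3 saline, 3 OVA and 4 DSE mice were analysed. The authors captured CpG-rich regions with SureSelect Methyl-seq, treated the DNA with bisulfite, and deposited counts without normalization: the methylated and unmethylated CpG calls of each mouse in 1000-bp windows that start every 500 bp. The submitters' processing notes name cutadapt 1.10, Bismark 0.19.0, methylKit 1.0.0 and mm10. The BALB/c reads were mapped to the C57BL/6J reference, so strain variants at CpGs can shift a level in all groups alike. The 446336 windows had at least 10 calls in every mouse. Total calls were 306656737 to 410836272 per mouse, and most are counted in 2 windows. The label Herb was taken as DSE because the study describes no other herb. Groups and replicates were taken from the sample titles.

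Windows were assigned to members, features, exons and introns with RefSeq GRCm38.p6, whose 22 chromosomes were compared with the windows, and 0 windows lay past a chromosome end. Sequences are RefSeq's, read from GRCm38.p6. Promoter sequences matched all members but Rad50. A window needed 20 calls in every mouse. For each comparison, only the mice of its groups entered a logistic model of the calls, tested by likelihood ratio, with Benjamini-Hochberg adjustment over all 421759 windows (DMR: adjusted p under 0.01 and at least 10 percentage points between pooled levels). Limma 3.58.1 in R 4.3.3 was fitted to M-values (pseudocount 1) of all windows with mice as replicates, and its adjusted p is Benjamini-Hochberg. Single windows were compared by two-sided exact permutation tests in Python 3.11.15, whose smallest p is 0.1 for 3 mice against 3 and 0.0571 for 3 against 4. The labels do not say more of how the mice relate, so p-values measure the spread between these samples. No pair of mice held the same calls. The tests were tested on simulated data.

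The windows named are, for each member, the one nearest the start site and those lowest and highest in saline mice, where they add to the account, and every called region by its window of largest difference. Other windows were named after their values were seen. These touch a called region, passed limma or lie at the Rad50 start. Others lie between Kif3a and Il4, in introns 5, 6 and 8 of Kif3a, in intron 2 of Il13 or upstream of Irf1. The measures over windows under 5%, mitochondrial windows and the start sites of all genes were also chosen after values were seen. The members and gene lists were chosen with earlier results of these data known. Alternatives were other tests, minimums, thresholds, extensions, scaling, windows that do not overlap, a replicate block and each mouse left out. RNA-seq was not analysed here.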

Additional observations from a re-analysis of the deposited data

Results flagged for a closer look

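Of 38 sets of values over the 4 DSE mice, 4 had 1 mouse far from the others (Dixon's test), where chance gives about 1 in 20. The groups of 3 mice were not tested. The mean of the Rad50 windows was 59.2% in DSE mouse 2 and 62.3% to 62.6% in the other 3. The Kif3a window at chr11:53585501-53586500, in intron 8, was at 78.7% in DSE mouse 1 and 91.0% to 92.4% in the other 3. The Il5 window and the mean of the 2 Il5 windows, which hold identical calls, were both at 75.1% in DSE mouse 1 and 76.6% to 76.8% in the other 3, a gap of the size of the spread between saline mice.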

How the results depend on the processing

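The main counts of hyper and of hypo methylated DMRs were 2 and 5 in OVA vs. saline, then 1 and 0 in DSE vs. OVA, then 3 and 6 in DSE vs. saline. A threshold of 20 points left 0 in all 3 comparisons, where 0.0759% to 0.284% of all windows passed. One of 5 points gave 4 and 13 (12.7% and 5.92% of all windows), 4 and 1 (2.93% and 2.46%), and 7 and 21 (14.0% and 6.98%). Limma gave 0 at an adjusted p under 0.01 (at most 0.00190% of all windows). At 0.05 with 10 points it gave 0 except for 4 hypo methylated windows in DSE vs. saline (1.69% of all windows). An F test with overdispersion gave 0 of the 421759 windows in each comparison, so it says nothing of the locus. Without the 5 kb extension OVA vs. saline gave 0 and 2 and DSE vs. saline gave 1 and 2. With 10 kb there were 5 hyper methylated in DSE vs. saline. The extension leaves the shares of all windows as they were, at 4.83% and 2.60%, and 5.02% and 3.09%. Windows that do not overlap gave 1 and 1 for the OVA and saline mice (4.83% and 2.60% of such windows), with 1 hypo methylated in DSE vs. saline (3.07%). A minimum of 10 calls gave 2 hyper methylated in DSE vs. OVA (0.904% of all windows). With each mouse left out in turn, OVA vs. saline had 0 to 5 hyper and 4 to 8 hypo methylated windows (4.18% to 6.30% and 2.38% to 3.02% of all windows). DSE vs. OVA had 1 to 2 and 0 to 1 (0.812% to 1.08% and 0.610% to 0.844%). DSE vs. saline had 1 to 4 and 4 to 7 (4.56% to 5.99% and 2.84% to 3.50%). The hyper methylated count of OVA vs. saline moved most, to 0 without OVA mouse 3, 1 without saline mouse 2, 4 without OVA mouse 1 or saline mouse 3, and 5 without saline mouse 1. The hypo methylated count was 8 without saline mouse 3. In DSE vs. OVA there were 2 hyper methylated without DSE mouse 1 and 1 hypo methylated without OVA mouse 2. In DSE vs. saline there was 1 hyper methylated without saline mouse 2. Apart from the settings whose construction shows it, the cause of these changes was not tested.

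The labels do not say whether the replicate numbers pair the mice. The correlation of the deviations of mice with the same number was -0.027 to 0.078. This gave no sign of pairing but cannot settle it, as mice with unlike numbers were not compared. With the replicate block, limma on replicates 1 to 3 gave 0 DMRs in each comparison, as it did on the same mice without the block (at most 0.0142% of all windows). The logistic model with the block used the same mice. In it, 10 of the 12 called regions kept the call in their window of largest difference. The locus held 2 and 6 DMRs (4.82% and 2.60% of all windows), 1 and 0 (0.998% and 0.796%), and 2 and 5 (4.55% and 2.83%). The 2 lost were downstream of Irf1 (7.96 points) and past the 3′ end of Rad50 (-11.3 points), both in DSE vs. saline. This fit leaves out DSE mouse 4, and the Irf1 difference was the same 7.96 points without that mouse and without the block.

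The mean difference over the locus was -1.29 points in OVA vs. saline. It was -3.20 with calls pooled over windows, -1.58 with a minimum of 10 calls, -0.81 with windows that do not overlap, -1.88 without the extension, -0.77 with 10 kb, and -1.41 to -1.10 with each mouse left out. In DSE vs. OVA it was 0.35 with a minimum of 10 calls, 3.73 with pooled calls, -0.24 with 10 kb and -0.11 to 0.086 with each mouse left out, below 0 without DSE mouse 4 (-0.11) or OVA mouse 2 (-0.038). In DSE vs. saline it was -1.28, and -1.69 with a minimum of 50 calls, 0.53 with pooled calls, -0.67 with windows that do not overlap, -1.64 without the extension and -1.41 to -1.08 with each mouse left out. Its sign changed in DSE vs. saline with pooled calls, which also depend on how each mouse's calls are spread over the windows.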
